A study of Mus musculus with 8 samples.

Results

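The 7 genes described here, Col1a1, Col1a2, Col3a1, Dcn, Igf2, Igfbp2 and Ptgds, are abundant in fibroblasts of the meninges, the membranes that cover the brain. They were taken by name and make up 7 of the 13996 genes measured. RNA sequencing was carried out on brain cortexes of male C57BL/6 mice, with 4 mice per diet and 1 library per mouse. All mice were obtained at 8 weeks of age and were 16 weeks old at the end. The normal group ate a conventional diet, while the high fat diet (HFD) group ate a diet holding 60% fat by weight for 8 weeks. Levels are given as FPKM, the fragments of a gene scaled to the length of its transcript and to the mapped reads of the library, and were rounded to 0.1 in the values used here. Read numbers per gene are therefore unknown, and the FPKM sums per mouse lay between 562431 and 639142.

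Meningeal fibroblasts lie in the pia, arachnoid and dura and build the collagen-rich matrix of these membranes. A type I collagen fibril is built from triple helices of the chains encoded by Col1a1 and Col1a2, and type III collagen, the product of Col3a1, is often found in the same fibrils. The membranes also secrete growth factors and transport proteins into the cerebrospinal fluid, among them insulin-like growth factor 2, its binding protein, and the prostaglandin D synthase encoded by Ptgds. Several of these genes are active elsewhere in the brain as well: Igf2 and Igfbp2 in the choroid plexus, Igfbp2 in astrocytes and Ptgds in oligodendrocytes.

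The tissue label and the cell type label were checked against marker genes. All 12 markers of cortical excitatory neurons were measured in each mouse, and their most abundant gene, the glutamate transporter Slc17a7, lay between 209.5 and 403.9 FPKM. Of 34 further markers of meningeal fibroblasts, 30 were measured in the cortex. The most abundant were Nov, Igfbp6 and Mgp with means of 44.3, 30.5 and 24.2 FPKM over the 8 mice, and Nov and Igfbp6 are also made by neurons. Foxc1, a transcription factor needed for the meninges to form, was near the lower limit of the values, between 0.9 and 1.4 FPKM. Foxc2, Foxd1, Tbx18 and Dpp4 were looked for but are absent from the values used here. Markers of tissue next to the cortex were found too, and they differed between diets and between mice. Summed FPKM of 10 striatal markers was 462, 376, 360 and 250 in normal mice 1 to 4 and 84.8, 84.5, 93.6 and 87.6 in HFD mice 1 to 4. For 8 cerebellar markers the sum was 26.8, 272, 368 and 86 in normal mice 1 to 4 and lay between 23.2 and 26.3 on HFD. For 12 choroid plexus markers it was 916, 795, 984 and 501 in the normal mice and 159, 101, 120 and 1172 in the HFD mice, so that HFD mouse 4 stood apart from the others of its diet. The amount of neighbouring tissue taken with the cortex and the diet cannot be told apart in these samples.

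Between the diets, 5 of the 7 genes were lower on HFD at an adjusted p below 0.05 (limma, adjusted over all 13982 genes tested): Col3a1, Igf2, Col1a1, Igfbp2 and Col1a2. This is 71.4% of the members, where 33.1% of all genes tested passed in either direction, 15.3% being lower and 17.7% higher. None of the 7 passed as higher in limma. At an unadjusted p below 0.05, Dcn alone was higher, beside 3234 of all 13982 genes tested. The count of 5 depended on the test and on single mice. Exact two-sided permutation tests over 70 assignments, with p-values not adjusted, gave 0 higher members and 3 lower ones at p below 0.05. These were Col3a1, Igf2 and Col1a1 (exact p = 0.0286 each, the smallest that they can give), while Col1a2 and Igfbp2 had exact p = 0.0857. With 4 mice per diet an exact p below 0.05 needs diets that do not overlap. That held for 14.7% of all genes tested as lower and 17.2% as higher. With each mouse left out in turn, limma called 3 to 5 members. It called 3 without normal mouse 2 or normal mouse 3, where 3292 and 3625 of all genes were called instead of 4626. Without HFD mouse 3 it called 4, of which Dcn was higher, and 3763 of all genes. With a change of more than 1.5 times required in addition, 3 members were lower (Col3a1, Igf2 and Col1a1), beside 406 lower genes of all tested (2.9%). By the same rule 0 members were higher, beside 591 higher genes of all tested. The same 3 genes had no overlap between the diets, each HFD mouse lying below each normal mouse, as was true of 14.7% of all genes. No member lay wholly higher on HFD, as 17.2% of all genes did. The median log2 fold change was -0.55 over the members and 0.00 over all genes tested. Fold changes are on the log2(FPKM + 0.1) scale, HFD minus normal, and understate changes of low genes. In whole tissue, fewer fibroblasts, less RNA per fibroblast and less RNA from other cells that make these genes cannot be told apart.

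**Figure D1:**
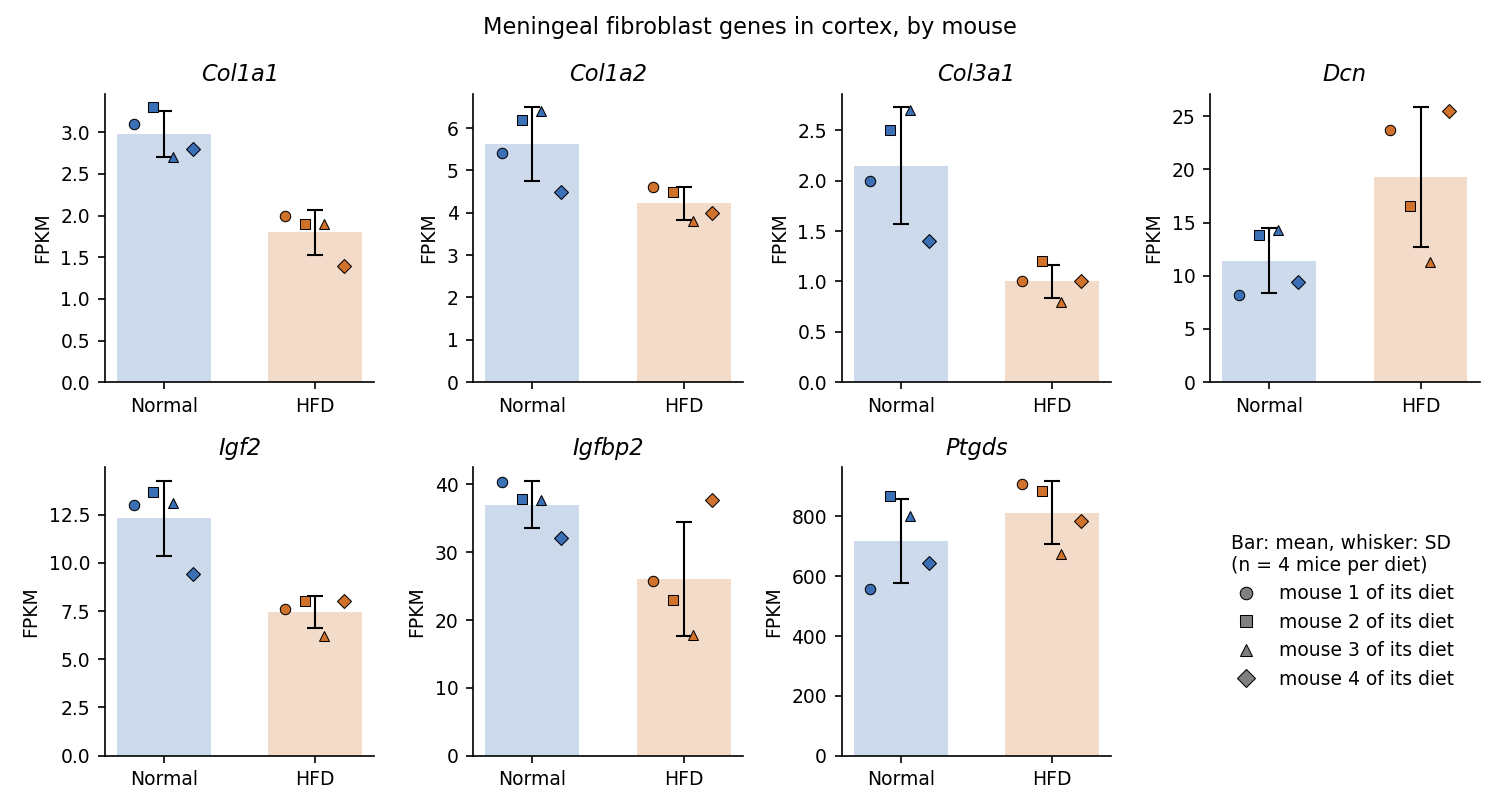
FPKM of the 7 genes in each mouse (points, the symbol giving the mouse's number within its diet), with the mean (bar) and SD (whisker) of 4 mice per diet. Col1a1, Col3a1 and Igf2 separate the diets, while Dcn is highest in HFD mice 1 and 4 and Igfbp2 of HFD mouse 4 lies among the normal mice.

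Col3a1, which encodes the chain of type III collagen, had the largest log2 fold change among the members with the added constant of 0.1. Its level was 2.0, 2.5, 2.7 and 1.4 FPKM in normal mice 1 to 4 and 1.0, 1.2, 0.8 and 1.0 FPKM in HFD mice 1 to 4. Normal mice 2 and 3 were highest and normal mouse 4 was nearest to the HFD mice, which lay close together. The means were 2.15 ± 0.58 FPKM on the normal diet and 1 ± 0.163 FPKM on HFD (SD, n = 4). The log2 fold change was -1.0 with a standard error of 0.21 (limma adjusted p = 0.00693). The call held with each mouse left out in turn, with log2 fold changes from -1.19 to -0.89. The size depended on the constant, as the gene is low: it was -0.64 with a constant of 1, where Igf2 had -0.65 and Dcn 0.68. Without HFD mouse 3 it was -0.91, and Dcn then had 0.95. Normal mice 2 and 3 also had the highest cerebellar marker levels, and without both of them, a choice made after seeing the data, the log2 fold change was -0.70 and missed the threshold (limma adjusted p = 0.0595).

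Col1a1 encodes the alpha 1 chain of type I collagen. It was measured at 3.1, 3.3, 2.7 and 2.8 FPKM in the normal mice and at 2.0, 1.9, 1.9 and 1.4 FPKM in the HFD mice. The 4 normal mice were alike and all higher, and HFD mouse 4 was lowest. Means were 2.98 ± 0.275 and 1.8 ± 0.271 FPKM (SD, n = 4), a log2 fold change of -0.70 with a standard error of 0.13 (limma adjusted p = 0.00419). The range with single mice left out was -0.75 to -0.59, and each of these 8 fits kept the call.

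Col1a2, for the alpha 2 chain of the same collagen, differed less. Its values were 5.4, 6.2, 6.4 and 4.5 FPKM in the normal mice and 4.6, 4.5, 3.8 and 4.0 FPKM in the HFD mice. Normal mouse 4 was as low as HFD mice 1 and 2, so that the diets overlapped. The means of 5.62 ± 0.866 and 4.22 ± 0.386 FPKM (SD, n = 4) gave a log2 fold change of -0.40 with a standard error of 0.12 (limma adjusted p = 0.0295). This call rested on single mice. It was lost without normal mouse 2 (-0.35, limma adjusted p = 0.0801), normal mouse 3 (-0.33, 0.0752), HFD mouse 3 (-0.35, 0.074) or HFD mouse 4 (-0.37, 0.0676), and it fell to -0.22 without normal mice 2 and 3 together (0.216). Transcripts of the alpha 1 chain were below those of the alpha 2 chain per length in 8 of 8 mice. The ratio of Col1a1 to Col1a2 was 0.574, 0.532, 0.422 and 0.622 in the normal mice and 0.435, 0.422, 0.5 and 0.35 in the HFD mice. These ratios overlapped between diets, with a difference in log2 ratio of -0.31 (exact two-sided permutation test over 70 assignments, p = 0.114, and 0.114 adjusted over 11 ratios between members, all chosen after the values were seen).

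Igf2 encodes insulin-like growth factor 2, a secreted growth factor that is imprinted in most tissues but expressed from both alleles in the choroid plexus and leptomeninges. It reached 13, 13.7, 13.1 and 9.4 FPKM in the normal mice and 7.6, 8.0, 6.2 and 8.0 FPKM in the HFD mice. Normal mice 1 to 3 lay close together, and normal mouse 4 fell between them and the HFD mice without overlap. The means were 12.3 ± 1.96 and 7.45 ± 0.854 FPKM (SD, n = 4), and the log2 fold change was -0.71 with a standard error of 0.13 (limma adjusted p = 0.00367). With single mice left out it ranged from -0.83 to -0.62 and stayed past the threshold in 8 of 8 fits. The Igf2 gene span, introns included, shares 16048 bases with the gene model Gm49394 on the same strand and 7124 bases with the antisense gene Igf2os. Whether their exons share reads was not tested. The sources used here do not say whether the counting used strand.

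Igfbp2 encodes a secreted protein that binds insulin-like growth factors, Igf2 among them. Its level was 40.4, 37.9, 37.7 and 32.1 FPKM in the normal mice and 25.8, 22.9, 17.8 and 37.7 FPKM in the HFD mice. HFD mice 1 to 3 were below each normal mouse, while HFD mouse 4 was at the level of normal mouse 3. Means were 37 ± 3.51 and 26.1 ± 8.44 FPKM (SD, n = 4), with a log2 fold change of -0.55 and a standard error of 0.19 (limma adjusted p = 0.0483). This was the weakest of the 5 calls and held in 2 of 8 fits with a mouse left out, those without normal mouse 4 or HFD mouse 4. It was lost without normal mouse 1 (-0.51, limma adjusted p = 0.093), normal mouse 2 (-0.54, 0.0981) or normal mouse 3 (-0.54, 0.0912). It was also lost without HFD mouse 1 (-0.57, limma adjusted p = 0.0863), HFD mouse 2 (-0.51, 0.115) or HFD mouse 3 (-0.39, 0.0985). HFD mouse 4 also held the highest choroid plexus marker level of all 8 mice, led by the transthyretin gene Ttr at 920.7 FPKM against 18.6 to 73.4 FPKM in the other HFD mice. Without that mouse the log2 fold change of Igfbp2 was -0.75 (limma adjusted p = 0.00502). The part of choroid plexus tissue in the Igfbp2 values was not tested.

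Dcn encodes decorin, a small proteoglycan that binds collagen fibrils and limits their thickness. It was found at 8.2, 13.8, 14.3 and 9.4 FPKM in the normal mice and at 23.7, 16.6, 11.3 and 25.5 FPKM in the HFD mice. HFD mice 1, 2 and 4 were above each normal mouse, and HFD mouse 3 was within the normal range. The means of 11.4 ± 3.08 and 19.3 ± 6.56 FPKM (SD, n = 4) gave a log2 fold change of 0.72 with a standard error of 0.27, which missed the threshold (limma adjusted p = 0.0635). Leaving out HFD mouse 3 gave 0.95 and a call (limma adjusted p = 0.0164). The other 7 fits with a mouse left out gave no call, and 0.56 was the lowest value. Without normal mice 2 and 3 together it was 1.06 (limma adjusted p = 0.0398). The difference of Dcn thus had the opposite sign to those of the 5 members called lower. The log2 ratio of Dcn to Col3a1 was 2.36 ± 0.28 on the normal diet and 4.08 ± 0.47 on HFD (SD, n = 4). This pair was chosen after the values were seen, as the highest and lowest log2 fold changes among the members, so that the ratio describes them and is no further test.

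Ptgds, the lipocalin-type prostaglandin D synthase, was by far the most abundant of the 7 genes. Its levels were 558.4, 868.7, 800.3 and 644.5 FPKM in the normal mice and 908.8, 884.0, 675.4 and 783.6 FPKM in the HFD mice. Both diets held high and low mice, and their ranges overlapped widely. The means were 718 ± 142 and 813 ± 106 FPKM (SD, n = 4), and the log2 fold change of 0.19 with a standard error of 0.15 was not past the threshold (limma adjusted p = 0.338), nor was it in any of 8 fits with a mouse left out (0.08 to 0.29). Without normal mice 2 and 3 together it was 0.43 (limma adjusted p = 0.0502).

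Per length, the levels of the 7 genes over all 8 mice ordered as Ptgds with a mean of 765 FPKM, Igfbp2 with 31.5, Dcn with 15.3, Igf2 with 9.88, Col1a2 with 4.92, Col1a1 with 2.39 and Col3a1 with 1.57. Some neighbours in this order were close within a mouse. In the normal mice Dcn was above Igf2 in mice 2 and 3, equal to it at 9.4 FPKM in mouse 4 and below it in mouse 1, with a log2 ratio of -0.13 ± 0.36 (SD, n = 4). Col1a1 was above Col3a1 in normal mice 1, 2 and 4 and equal to it at 2.7 FPKM in normal mouse 3. On HFD Igfbp2 was above Dcn in each of the 4 mice, with a log2 ratio of Dcn to Igfbp2 of -0.45 ± 0.23.

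After subtraction of the diet means, many but not all pairs of the 7 genes varied together between mice. Over the 21 pairs the median Pearson r was 0.58 (8 mice), 12 pairs were above 0.5 and 2 were below 0. All points share the library and scaling of their mouse. The r of pairs of other genes was not computed, so that these values are not shown to be particular to the members. Col1a2 and Col3a1 were most alike (r = 0.94, 0.86 to 0.99 with single mice left out), followed by Igf2 with Col3a1 (0.90, 0.72 to 0.94) and Igf2 with Col1a2 (0.83, 0.55 to 0.92, lowest without normal mouse 4). Dcn and Ptgds, the members that were not lower on HFD, were alike at 0.77, and Ptgds also varied with Col1a2 (0.76). Col1a1 varied less with the other members called lower, and single mice moved its values much. With all mice and, in brackets, with single mice left out, its r was 0.28 to Col1a2 (0.16 to 0.56), 0.08 to Col3a1 (-0.15 to 0.31), 0.02 to Igf2 (-0.27 to 0.44) and -0.59 to Igfbp2 (-0.69 to 0.40). The mean of log2(FPKM + 0.1) over the 7 genes was 3.78, 4.06, 4.02 and 3.59 in the normal mice and 3.64, 3.57, 3.22 and 3.62 in the HFD mice, lowest in HFD mouse 3. Of 13975 other genes, those most like this mean were Wdfy1 and Cnn3 (r = 0.98), Rasd1, Rps24, Naca, Riok3 and Med22 (0.97), and Psmd4, Sgpl1 and Pdlim5 (0.96), over 8 mice.

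**Figure D2:**
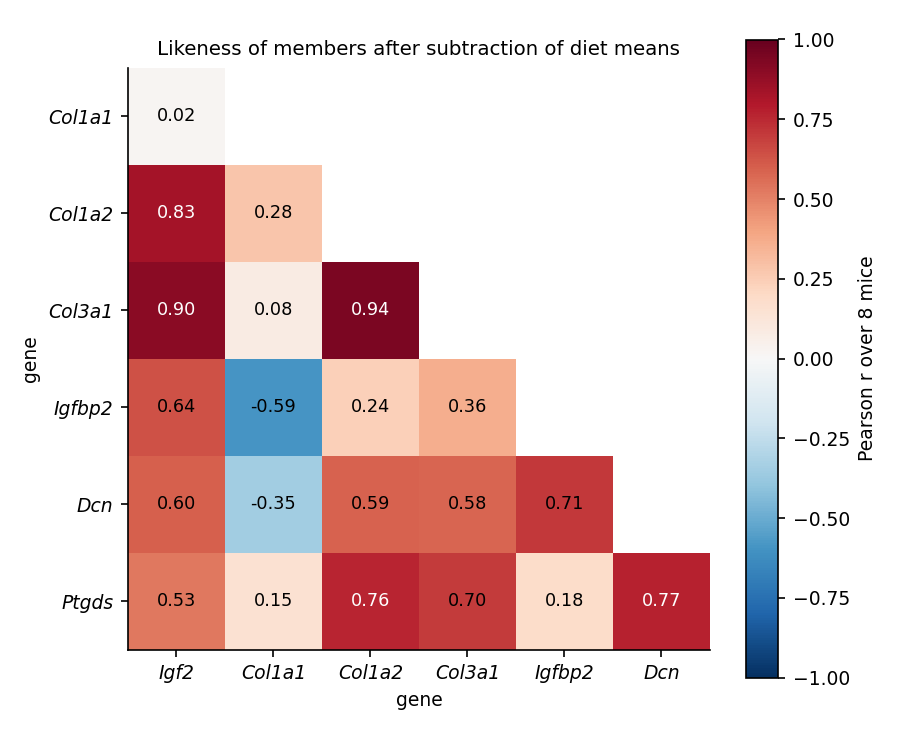
Pearson r between pairs of the 7 genes over 8 mice, computed on deviations of log2(FPKM + 0.1) from the diet means. Igf2, Col1a2 and Col3a1 are alike at 0.83 to 0.94, and Col1a1 is the gene with values near or below 0.

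Because Col1a2, Col3a1 and Igf2 varied together, their promoters are shown. RefSeq start sites (build GRCm38.p6) were given for 5 of the 7 genes in 9 windows of 250 bases before to 50 after the start. Dcn and Col1a1 have no entry. Col1a2 is on the plus strand at chr6:4505368-4505667, Col3a1 on the plus strand at chr1:45311288-45311587, and Igf2 on the minus strand at chr7:142657447-142657746, which is the one of 4 Igf2 windows nearest to the 3′ end of the gene. Capitals mark, on either strand, the TATA box (TATAAA), the binding motif of NF-Y (CCAAT), the GC box bound by Sp1 (GGGCGG) and the Smad-binding motif (CAGAC). In Igf2 the reverse NF-Y and Smad motifs share a base.
Col1a2: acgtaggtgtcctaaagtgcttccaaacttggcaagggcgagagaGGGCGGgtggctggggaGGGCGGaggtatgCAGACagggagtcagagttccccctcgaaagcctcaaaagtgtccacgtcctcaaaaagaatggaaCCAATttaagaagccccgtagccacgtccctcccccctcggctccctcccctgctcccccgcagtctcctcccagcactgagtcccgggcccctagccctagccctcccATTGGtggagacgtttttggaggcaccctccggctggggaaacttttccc
Col3a1: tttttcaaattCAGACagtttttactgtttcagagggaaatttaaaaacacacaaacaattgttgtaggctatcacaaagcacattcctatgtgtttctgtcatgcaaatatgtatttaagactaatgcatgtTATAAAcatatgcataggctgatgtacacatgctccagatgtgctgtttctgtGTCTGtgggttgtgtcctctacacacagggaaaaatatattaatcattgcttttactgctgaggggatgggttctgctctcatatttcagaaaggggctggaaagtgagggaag
Igf2: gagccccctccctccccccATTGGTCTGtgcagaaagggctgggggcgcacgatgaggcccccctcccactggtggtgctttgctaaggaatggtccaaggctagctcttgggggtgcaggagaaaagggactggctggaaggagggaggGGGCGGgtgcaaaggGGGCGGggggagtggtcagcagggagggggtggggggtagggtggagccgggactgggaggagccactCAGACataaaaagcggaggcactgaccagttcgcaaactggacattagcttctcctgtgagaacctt

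The Col1a2 window held CCAAT 109 bases before the start and, reversed, at the start, GGGCGG 205 and 188 bases before it, and CAGAC 175 bases before it. In the Col3a1 window TATAAA lay 117 bases before the start, and CAGAC 239 bases and, reversed, 64 bases before it. Igf2 held GGGCGG 100 and 85 bases before the start, a reverse CCAAT 231 bases before it, and CAGAC 17 bases and, reversed, 227 bases before it. CAGAC was in all 3 windows, but it does not set these genes apart: the windows of Igfbp2 and Ptgds held it too, as do 49.6% of all 32851 promoter windows. Another of the 4 Igf2 windows held none of the 4 motifs. TATAAA was in 13.6%, CCAAT in 37.4% and GGGCGG in 35.7% of them. The GC content was 61% for Col1a2, 37.7% for Col3a1 and 63.3% for Igf2. In the annotation (GENCODE M21, GRCm38) Col1a2 spans chr6:4504814-4541544, Col3a1 chr1:45311538-45349706 and Igf2 chr7:142650766-142666816. Col1a1 is at chr11:94936224-94953042, Dcn at chr10:97479609-97518143, Igfbp2 at chr1:72824503-72852474 and Ptgds at chr2:25466709-25470046. Col3a1 and Igfbp2 thus share a chromosome.

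The lower level of the 5 members was set beside other markers of the same cells. Of 30 further meningeal fibroblast markers tested, 2 were higher on HFD, 1 was lower and 27 did not pass in limma, against 33.1% of all genes passing, and the median log2 fold change was 0.14. Their summed FPKM was 174 ± 2.17 on the normal diet and 207 ± 17.6 on HFD (SD, n = 4). Most of this difference lay in Nov, with means of 33.1 and 55.4 FPKM, and Igfbp6, with 25.8 and 35.2 FPKM, both of which neurons make too. The marker Nov, a matricellular protein of the CCN family, was measured at 34.1, 28.6, 28.3 and 41.4 FPKM in the normal mice and 61.0, 50.2, 39.2 and 71.3 FPKM in the HFD mice. HFD mouse 3 overlapped with normal mouse 4. Nov rose by 0.72 ± 0.18 (log2, SE, limma adjusted p = 0.0148), and this was 0.52 without normal mice 2 and 3 (limma adjusted p = 0.116). Cemip, which takes part in hyaluronan breakdown, rose by 0.23 ± 0.08 (limma adjusted p = 0.0385), and Bmp6, a bone morphogenetic protein, changed by -0.39 ± 0.13 (limma adjusted p = 0.0409). Leaving out single mice ended the calls of Cemip and Bmp6 in 6 of 8 fits each, with limma adjusted p up to 0.101 and 0.105. The number of these markers called ranged from 1 without HFD mouse 2 to 6 without HFD mouse 3, and it was 0 without normal mice 2 and 3. Mgp, a matrix protein that inhibits calcification, had means of 25.8 ± 4.76 and 22.7 ± 3.16 FPKM and was not called (limma adjusted p = 0.351).

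**Figure D3:**
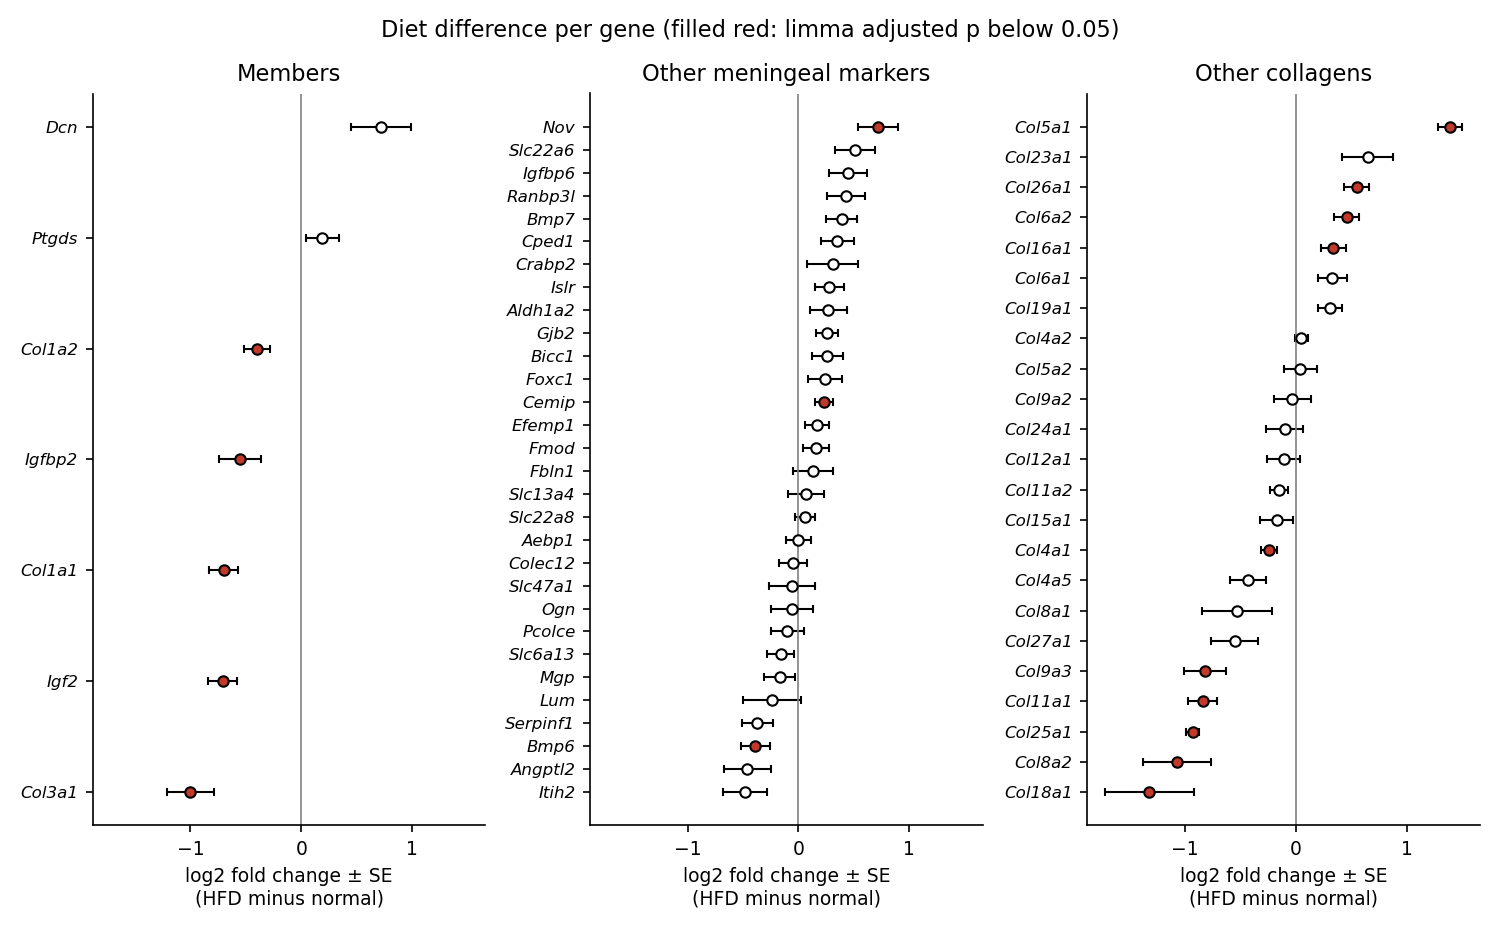
Log2 fold change (HFD minus normal, with SE, 4 mice per diet) of the 7 members, 30 other markers of meningeal fibroblasts and 23 other collagen genes, filled red where the limma adjusted p is below 0.05. The 5 called members lie below 0, while 27 of the other meningeal markers are not called and the collagens move both ways.

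Collagens outside the members went both ways. Of 23 tested, 6 were lower, 4 were higher and 13 did not pass, so that 43.5% were called, beside 33.1% of all genes tested, with a median log2 fold change of -0.11. Col5a1, a fibril collagen that is built into type I collagen fibrils, stood at 4.0, 3.9, 2.9 and 4.1 FPKM in the normal mice and at 9.5, 10.8, 9.4 and 9.6 FPKM in the HFD mice. Each HFD mouse was thus above each normal mouse. Col5a1 rose by 1.39 ± 0.11 (log2, SE, limma adjusted p = 0.00014). Col25a1, a transmembrane collagen of neurons, was lower without overlap, at 15.8 ± 0.52 against 8.23 ± 0.574 FPKM (-0.93 ± 0.06, limma adjusted p = 8.94e-05). Col4a1 of basement membranes changed by -0.24 ± 0.07 (limma adjusted p = 0.0217), and Col6a1, the most abundant of the list, was not called (0.33 ± 0.13, limma adjusted p = 0.0751). Col18a1 was lower by -1.32 ± 0.40 (limma adjusted p = 0.031), with 4.8 and 5.3 FPKM in normal mice 2 and 3 and 1.0 to 1.5 FPKM in the other 6 mice. Without those 2 mice its log2 fold change was -0.48 (limma adjusted p = 0.0842). Col8a2 differed by -1.07 ± 0.31 (limma adjusted p = 0.0269), with 1.8 FPKM in HFD mouse 4 and 0.6 to 0.7 FPKM in the other HFD mice. With single mice left out the calls of Col4a1, Col18a1 and Col8a2 were lost in 3, 6 and 5 of 8 fits, at limma adjusted p up to 0.0531, 0.0817 and 0.074. Of the list, 6 genes were called without normal mouse 2 and 13 without normal mouse 4, Col6a1 among the latter (0.41, limma adjusted p = 0.0342). Col6a1 had 0.23 without normal mouse 3 (limma adjusted p = 0.168) and 0.11 without normal mice 2 and 3 (0.454).

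Enzymes and chaperones that modify, fold and trim collagen chains were mostly lower where they passed. Of 23 tested, 9 were lower, 1 was higher and 13 did not pass, with a median of -0.10. This is 43.5% called, beside 33.1% of all genes tested, of which 15.3% were lower and 17.7% higher. Plod1, a lysyl hydroxylase needed for collagen crosslinks, was at 7.9, 9.7, 10.4 and 7.5 FPKM in the normal mice and at 5.4, 4.6, 6.2 and 5.8 FPKM in the HFD mice, without overlap. Its log2 fold change was -0.68 ± 0.12 (limma adjusted p = 0.00402). The procollagen protease Adamts3 followed at -0.53 ± 0.08 (limma adjusted p = 0.00201), then the collagen chaperone Serpinh1 at -0.51 ± 0.14 (limma adjusted p = 0.0221). P4hb, a subunit of prolyl 4-hydroxylase, changed by -0.31 ± 0.06 (limma adjusted p = 0.00574) and the prolyl isomerase Ppib by -0.23 ± 0.06 (limma adjusted p = 0.0223). These are general enzymes of secretory cells, and Ppib was the most abundant of the list with a mean of 102 FPKM. Sparc, a collagen-binding glycoprotein, was at 162.4 and 171.6 FPKM in normal mice 2 and 3. The other 6 mice lay between 57.5 and 77.5 FPKM. Sparc was not called (-0.77 ± 0.29, limma adjusted p = 0.0642), except without normal mouse 1 (-1.01, 0.0152) or normal mouse 4 (-0.94, 0.0362). With single mice left out it ranged from -1.01 to -0.56 (limma adjusted p up to 0.157). Without normal mice 2 and 3 it was -0.17 (limma adjusted p = 0.257). The Serpinh1 and Ppib calls were each lost in 2 of 8 fits with a mouse left out (limma adjusted p up to 0.0554 and 0.0619). Without normal mice 2 and 3 both were lost, Serpinh1 at -0.27 (limma adjusted p = 0.0628) and Ppib at -0.21 (0.108). In that fit 5 genes of the list were called.

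Dcn belongs to the small leucine-rich proteoglycans. Of 8 others tested, 1 was higher (Podn, 0.62 ± 0.16, limma adjusted p = 0.0172), 1 was lower (Ecm2, -0.65 ± 0.20, limma adjusted p = 0.0333) and 6 did not pass, so that 25% were called, beside 33.1% of all genes tested, with a median of 0.04. Podn and Ecm2 are low genes, with means over all mice of 1.14 and 1.4 FPKM. Their calls were lost in 1 and 5 of 8 fits with a mouse left out (limma adjusted p up to 0.0511 and 0.0836). Both calls were lost without normal mice 2 and 3, Podn at 0.51 (limma adjusted p = 0.102) and Ecm2 at -0.59 (0.147). The most abundant of the list, Fmod, Ogn and Prelp, had means of 4.76, 4.5 and 3.09 FPKM and were not called. In a fit without a variance trend Prelp was called (0.17, limma adjusted p = 0.045). Ogn in HFD mouse 3 was 2.8 FPKM against 4.8 to 5.1 FPKM in the other HFD mice, and that mouse was also the lowest of its diet for Dcn.

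Around Igf2 and Igfbp2, the other genes of the insulin-like growth factor system moved both ways. Of 12 tested, 3 were higher, 2 were lower and 7 did not pass, so that 41.7% were called, beside 33.1% of all genes tested, with a median of 0.20. Igf1r, the signalling receptor for both growth factors, was at 7.4, 7.0, 7.2 and 7.7 FPKM in the normal mice and at 10.3, 11.8, 12.5 and 11.1 FPKM in the HFD mice, without overlap. It rose by 0.63 ± 0.07 (log2, SE, limma adjusted p = 0.000695). Igf2r, which binds Igf2 and removes it, was at 11.1 ± 0.681 and 11.1 ± 0.655 FPKM (limma adjusted p = 0.919). Among the binding proteins, Igfbp5 rose from 20.1 ± 0.404 to 29.1 ± 2.06 FPKM (0.53 ± 0.06, limma adjusted p = 0.000608), a direction opposite to that of Igfbp2, and Igfbp7 was lower (-0.34 ± 0.09, limma adjusted p = 0.0205). Igfbp4 and Igfbp6 were not called (limma adjusted p = 0.448 and 0.0701). The protease Htra1, which can cleave binding proteins, was the most abundant at a mean of 70.2 FPKM and changed by -0.16 ± 0.05 (limma adjusted p = 0.0273). The calls of Igfbp7 and Htra1 were lost in 3 and 4 of 8 fits with a mouse left out (limma adjusted p up to 0.0528 and 0.0721), while those of Igf1r and Igfbp5 held in 8 of 8. The list had 3 to 5 calls in these fits, and Igfbp6 was called without normal mouse 1 (0.54, limma adjusted p = 0.0416).

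**Figure D4:**
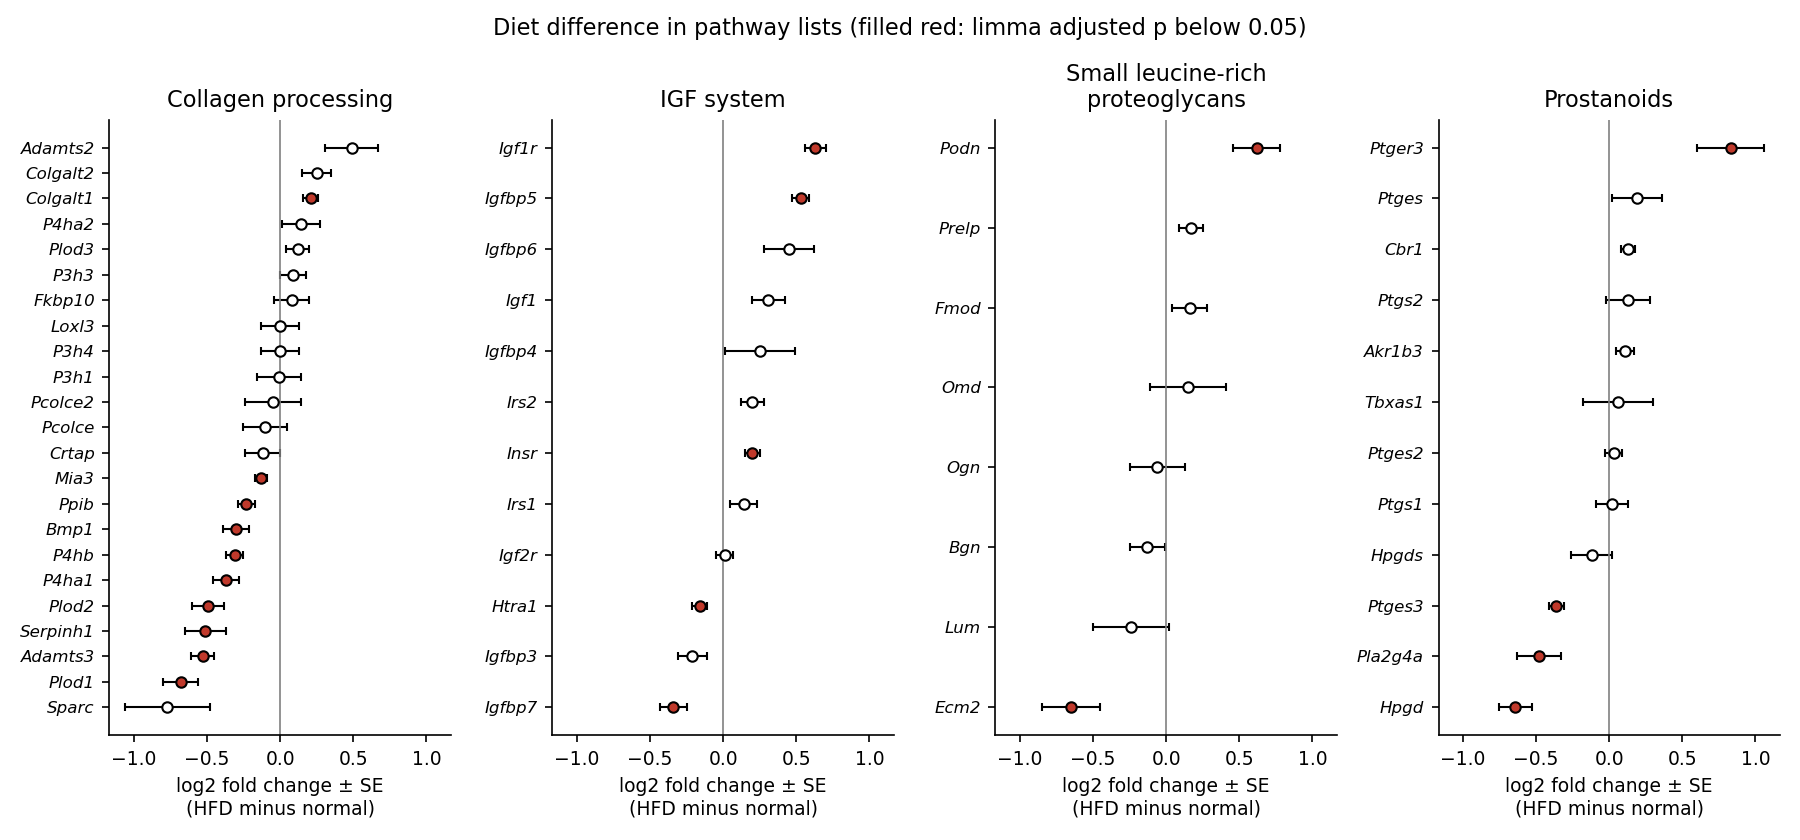
Log2 fold change (HFD minus normal, with SE, 4 mice per diet) of genes for collagen processing, the IGF system, small leucine-rich proteoglycans and prostanoids, filled red where the limma adjusted p is below 0.05. Of the collagen processing genes 9 are called lower and 1 higher, and in the IGF system Igf1r and Igfbp5 are called higher.

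Ptgds makes prostaglandin D2, and 12 other genes of prostanoid synthesis, breakdown and reception were tested. Of these 1 was higher, 3 were lower and 8 did not pass, so that 33.3% were called, beside 33.1% of all genes tested, with a median of 0.04. Hpgd, which inactivates prostaglandins, changed by -0.64 ± 0.11 (limma adjusted p = 0.00332). The most abundant of the list, the prostaglandin E synthase and chaperone partner Ptges3, changed by -0.36 ± 0.05 (limma adjusted p = 0.00141). Pla2g4a, a phospholipase that frees arachidonic acid, changed by -0.48 ± 0.15 (limma adjusted p = 0.0347), and the receptor gene Ptger3 rose by 0.83 ± 0.23 (limma adjusted p = 0.0216). The calls of Pla2g4a and Ptger3 were lost in 6 and 4 of 8 fits with a mouse left out (limma adjusted p up to 0.0894 and 0.0641). Both were also lost without normal mice 2 and 3, Pla2g4a at -0.34 (limma adjusted p = 0.223) and Ptger3 at 0.52 (0.136). Cbr1 and Akr1b3, reductases that can act on prostaglandins, were not called (limma adjusted p = 0.0624 and 0.179). After quantile normalization Cbr1 was called (0.14, limma adjusted p = 0.0411).

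TGF-beta signalling controls collagen genes in fibroblasts. Of 19 genes of this pathway tested, 4 were higher, 1 was lower and 14 did not pass, so that 26.3% were called, beside 33.1% of all genes tested, with a median of 0.00. The signal transducer Smad3 was at 13.9, 14.3, 12.6 and 14.1 FPKM in the normal mice and at 20.2, 21.1, 19.9 and 20.8 FPKM in the HFD mice, without overlap. It rose by 0.58 ± 0.05 (log2, SE, limma adjusted p = 0.000307). Ctgf, a target gene of the pathway, rose by 0.51 ± 0.08 (limma adjusted p = 0.00228), the binding protein Ltbp4 by 0.46 ± 0.10 (limma adjusted p = 0.00657) and the repressor Ski by 0.30 ± 0.05 (limma adjusted p = 0.00272). The lower gene was the receptor Tgfbr1 (-0.31 ± 0.08, limma adjusted p = 0.0134), also without overlap, named after its values were seen. Ski's relative Skil was not called (-0.15 ± 0.08, limma adjusted p = 0.2), but without normal mouse 3 it was (-0.23, limma adjusted p = 0.0267), as it was without normal mice 2 and 3 (-0.29, limma adjusted p = 0.0105).

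The levels of other cell types in the same libraries were set beside the 7 genes. Of cells near the meninges and vessels, the 3 border macrophage markers tested and the 5 smooth muscle markers had no call in limma, and none passed at an unadjusted p below 0.05 either. Of 14 endothelial markers, 5 were lower and 1 was higher (42.9% called), and of 9 pericyte markers 1 was lower (11.1% called). Of all genes tested 33.1% were called, 15.3% being lower and 17.7% higher. Summed endothelial FPKM was 157 ± 9.61 on the normal diet and 139 ± 5.97 on HFD (SD, n = 4), and summed pericyte FPKM was 91.9 ± 4.76 and 82.3 ± 1.8. These are ratios of HFD to normal of 0.888 and 0.895. With single mice left out, 3 to 6 endothelial and 0 to 1 pericyte markers were called.

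All 10 striatal markers were lower on HFD, where 15.3% of all genes tested were lower and 17.7% higher. The most abundant of them was Penk with 131.5, 114.4, 118.5 and 71.3 FPKM in the normal mice and 9.3 to 12.3 FPKM in the HFD mice. Oligodendrocyte markers were lower in 12 of 13 cases, and their most abundant gene was Mobp with 470.1 to 765.9 FPKM in the normal mice and 297.0 to 402.0 FPKM in the HFD mice. Summed oligodendrocyte FPKM was 2018 ± 381 and 1111 ± 162. Of 8 ependymal markers 7 were lower, while Pltp, the most abundant of the list, was not called (limma adjusted p = 0.101). Their sums were 40.6 to 61.1 FPKM in the normal mice and 30.9 to 37 FPKM in the HFD mice. All 5 red blood cell genes were lower, the most abundant being Hbb-bs, and with single mice left out 4 to 5 were called. Without normal mice 2 and 3, 1 ependymal marker and 0 red blood cell genes were called in limma, while all 10 striatal markers were. Of 7 cerebellar markers tested 4 were lower. Cbln1, the most abundant of the list, had 48.4 and 73.8 FPKM in normal mice 2 and 3 and 5.0 to 17.6 FPKM in the other 6 mice, and was not called (-1.62, limma adjusted p = 0.0989). The cerebellar marker Gabra6 was listed at 0.0 FPKM in HFD mouse 1. Of 12 choroid plexus markers 4 were lower with all mice, 12 were called without HFD mouse 4, 4 without normal mouse 4 and 0 in the other 6 fits with a mouse left out. Cortical excitatory neuron markers were higher in 8 of 12 cases and lower in 1, with a median of 0.46. Astrocyte markers split, 3 being higher and 3 lower of 11, as did oligodendrocyte precursor markers, 1 higher and 2 lower of 7. These are 54.5% and 42.9% called, beside 33.1% of all genes tested. With single mice left out, 5 to 9 cortical neuron markers, 3 to 8 astrocyte markers and 4 to 7 cerebellar markers were called. None of 10 microglial markers was called in limma with all mice, with 1 higher and 1 lower at an unadjusted p below 0.05. With single mice left out 0 to 1 of them were called, and 2 without normal mice 2 and 3.

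**Figure D5:**
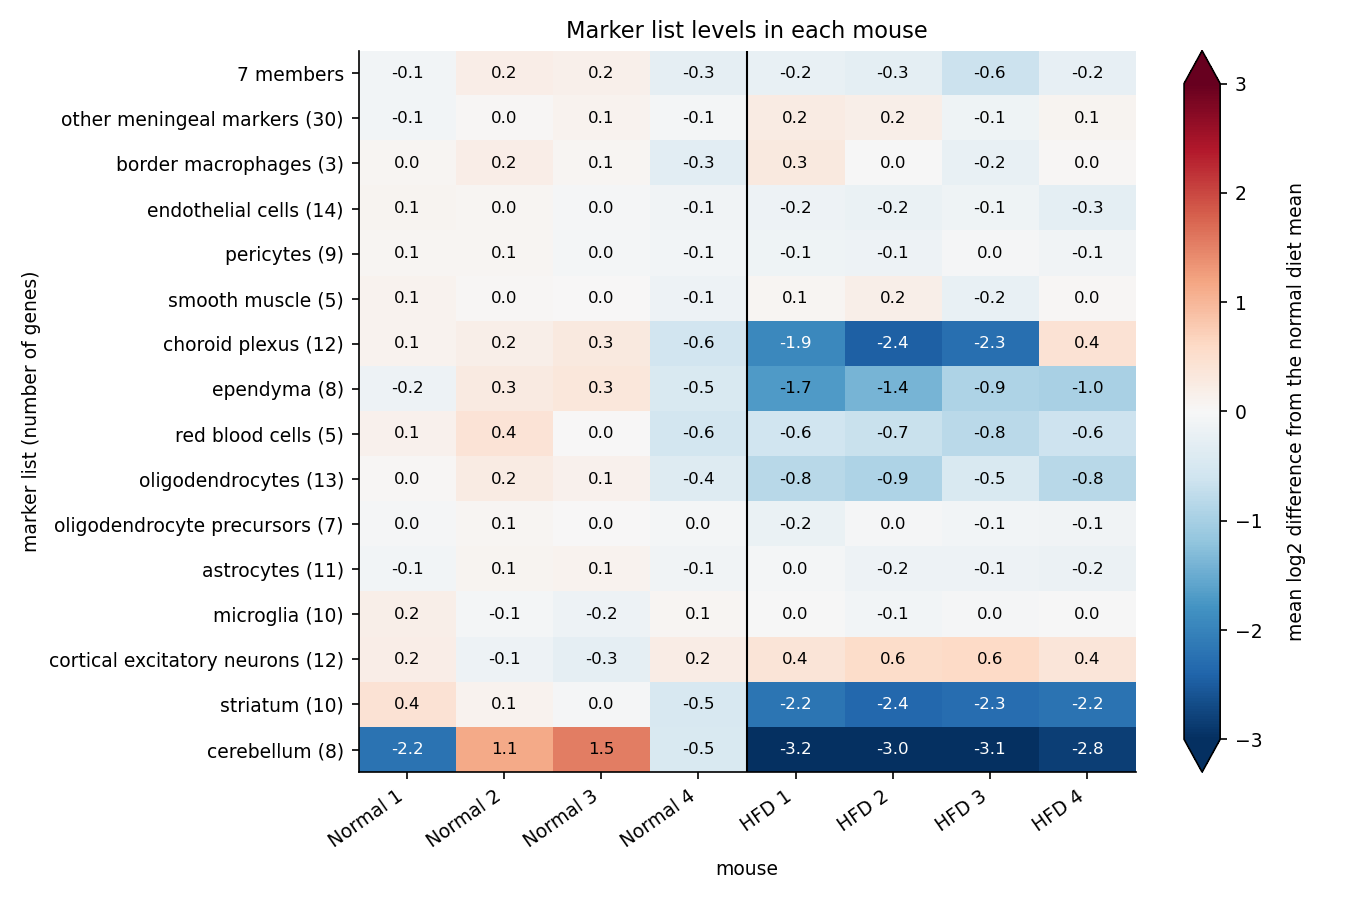
Level of the 7 genes and of 15 marker lists in each of the 8 mice, as the mean over the list's genes of log2(FPKM + 0.1) minus the normal diet mean (colour and printed value). Striatal markers are low in each HFD mouse, choroid plexus markers in HFD mice 1 to 3, and cerebellar markers are high in normal mice 2 and 3.

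Members and lists were compared between mice, as a description without a test of one r against another. Of the 21 lists, that with the highest r to Col1a1 was the TGF-beta pathway (r = 0.92 over 8 mice, on deviations from the diet means, the points sharing library and scaling). Col1a1 also varied with endothelial markers (0.82) and opposite to choroid plexus markers (-0.76). The list with the highest r was choroid plexus markers for Igfbp2 (0.89), astrocyte markers for Col1a2 (0.85), other collagens for Col3a1 (0.83) and collagen processing for Dcn (0.84), which ran opposite to the IGF system (-0.89). For Igf2 it was red blood cell genes (0.87). Other lists were close behind: smooth muscle markers for Igf2 (0.85), border macrophage markers for Col1a2 (0.83), and other collagens for Igf2 (0.82) and Dcn (0.81). Single mice were not left out for these r to lists, so that 1 mouse can carry them. HFD mouse 4, apart in summed choroid plexus markers (1172 against 101 to 159 FPKM), was highest of its diet for Igfbp2 and lowest for Col1a1. Summed FPKM of the red blood cell genes was 378, 480, 363 and 239 in normal mice 1 to 4 and 234, 219, 199 and 247 in the HFD mice, and normal mouse 4 was the lowest of its diet for blood as it was for Igf2. The list with the highest r to Ptgds was the other meningeal markers (0.84), and their r was 0.79 for Dcn, 0.73 for Col1a2, 0.65 for Col3a1, 0.58 for Igf2, 0.38 for Igfbp2 and 0.07 for Col1a1. Cortical excitatory neuron markers ran opposite to Dcn (r = -0.85), Col1a2 (-0.77), Ptgds (-0.76) and Col3a1 (-0.75). The part of striatal, choroid plexus, blood and oligodendrocyte levels in the lower values of Col3a1, Igf2 and Col1a1 was not tested.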

How the data were processed

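Stranded libraries of rRNA-depleted cortex RNA were sequenced from 8 mice. After quality control and trimming (FastQC, Trimmomatic), the authors aligned reads to mm10 using STAR and made the deposited FPKM values using Cuffnorm and GENCODE M17. The sources used here give no tool versions. The authors' filter asked for a mean FPKM of 1 or more and no 0, and 14 of 13996 genes did not meet it (12 with a 0, 2 below the mean). FPKM gives no read counts, so depth is unknown.

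Here log2(FPKM + 0.1) of 13982 genes was fitted in limma 3.58.1 (R 4.3.3), allowing the variance to follow the mean. Tests were two-sided, and limma p-values adjusted after Benjamini and Hochberg were held to a threshold of 0.05. Exact p-values of single members were held to it without adjustment. The fit was tested on simulated data. Tables, exact tests and figures were made with Python 3.11.15, numpy 2.4.6, pandas 2.3.3, scipy 1.17.1 and matplotlib 3.10.9. The members and gene lists were chosen with earlier results of these data known. Of 326 genes in 21 other lists, 249 were found, 2 of them by gene ID.

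The text names the members, the 3 most abundant genes and the 3 largest changes past the threshold in each pathway list, the most abundant gene of cell type lists, and the 10 genes most like the members. Foxc1, Igf2r, Gabra6 and Tgfbr1 were added after the values were seen. In cell type lists the 3 largest changes were left out for brevity. Gene models are from GENCODE M21, later than M17, and the 7 member gene IDs had the same version in both. Alternatives were other added constants, filters and scalings, no variance trend, a block, and mice left out. Salmon and edgeR, which the authors also ran, were not used here.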

Additional observations from a re-analysis of the deposited data

Results flagged for a closer look

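A value was picked out where 1 mouse of a diet lay apart from its other 3, with a gap above the critical value of Dixon's test for 4 values, as a share of the range of that diet. This was so in 15 of 164 groups tested, and chance gives about 1 in 20. Values are gaps as a share of the range, and causes were not tested.

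Among the members, Igf2 was low in normal mouse 4 (9.4 against 13 to 13.7 FPKM, gap 0.837) and Col1a1 in HFD mouse 4 (1.4 against 1.9 to 2 FPKM, gap 0.833).

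HFD mouse 4 was apart in choroid plexus markers (summed FPKM 1172 against 101 to 159, gap 0.946), in Ttr (gap 0.939) and in Col8a2 (1.8 against 0.6 to 0.7 FPKM, gap 0.917). It was lowest for Cbr1 (34.3 against 36.4 to 36.7 FPKM, gap 0.875) and for summed pericyte markers (79.6 against 82.9 to 83.5, gap 0.846).

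HFD mouse 3 was lowest for Ogn (gap 0.87), Podn (1.1 against 1.5 FPKM, gap 1) and Pdgfra (13.3 against 14.4 to 14.6 FPKM, gap 0.846). It was highest for Mobp (gap 0.859) and for summed oligodendrocyte markers (1352 against 997 to 1050, gap 0.851).

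HFD mouse 2 was highest for Col5a1 (10.8 against 9.4 to 9.6 FPKM, gap 0.857) and Col18a1 (1.2 against 1 FPKM, gap 1), a difference near the rounding of 0.1. Normal mouse 3 was lowest for Col5a1 (2.9 against 3.9 to 4.1 FPKM, gap 0.833).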

How the results depend on the processing

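Igf2 kept its direction and call under each alternative. So did Col1a1 and Col3a1 where they were tested, except Col3a1 without normal mice 2 and 3. With added constants of 0.5 and 1, no filter, median-ratio rescaling or quantile normalization, 5 members were called, Col3a1 going from -1.0 to -0.80 and -0.64 with the 2 constants, and no scaling or filter moved the median of all genes by more than 0.011. A mean FPKM of at least 5 left 2 members called, since it removes genes below it, among them the 3 collagens. Without a variance trend Igfbp2 kept -0.55 but was not called (limma adjusted p = 0.0712). Exact permutation tests, not adjusted, gave p = 0.0857 for Col1a2 (-0.40) and for Igfbp2 (-0.55).

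With each mouse left out, 3 to 5 members were called, beside 3292 to 4618 of all genes instead of 4626. Without HFD mouse 3 the called members were Igf2, Col1a1 and Col3a1 as lower and Dcn as higher (0.95, limma adjusted p = 0.0164). Log2 fold changes ranged from -0.50 to -0.33 for Col1a2, -0.75 to -0.39 for Igfbp2 and 0.56 to 0.95 for Dcn. The median r among members was 0.41 to 0.65, and 0.48 with Spearman's rho. Without normal mice 2 and 3, chosen after seeing the data, 2736 genes were called instead of 4626, 3 members instead of 5 and 63 genes of the other lists instead of 106. Of the 5 lower members only Igf2 (-0.57, limma adjusted p = 0.0329) and Col1a1 (-0.69, 0.0257) kept their calls, and the other called member, Dcn, was higher (1.06, 0.0398). Log2 fold changes were then -0.22 for Col1a2 (0.216), -0.70 for Col3a1 (0.0595), -0.52 for Igfbp2 (0.181) and 0.43 for Ptgds (0.0502). Fewer mice give less power, and other causes were not tested.

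Same-numbered mice did not vary together over all genes (r = -0.038, -0.028, -0.109 and -0.072), and the labels give them no link but the number. Whether they shared a cage or batch was not tested. With the replicate number as a block, 3390 genes, 4 members and 82 genes of the other lists were called, and Igfbp2 at -0.55 was not (limma adjusted p = 0.0819).

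Of 651 values of 39 other named genes, 563 were on the same side of the threshold, 75 lost and 8 gained a call, and 5 changed sign. Those were of uncalled genes, with -0.06 for Ogn, -0.17 for Mgp and 0.25 for Igfbp4 with all mice. Ogn had -0.14 to 0.14 over single mice left out, with 0.14 without HFD mouse 3 and 0.01 without normal mouse 2. Without normal mice 2 and 3 the values were 0.03 for Ogn, 0.03 for Mgp and -0.05 for Igfbp4.

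Depth is unknown, and rounding to 0.1 limits low genes such as Col3a1.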
